A study of Mus musculus x Mus spretus with 8 samples.

Results

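The comparison described here sets 2 RNA-seq libraries labelled Rlim knockout against 2 wild type (WT) libraries, 4 of the 8 libraries of the series. Its members were taken from the count table by their column labels, and they are described over the 17839 genes that passed a filter on low counts. All libraries came from Patski, a female fibroblast line from a cross of C57BL/6 and SPRET/EiJ (Mus spretus) parents, grown in DMEM with serum. WT carried no induced mutation according to its label, and the Rlim libraries were labelled as homozygous null for Rlim, from independent mutants according to the design text. The other 4 libraries, labelled as null for Stc1 or Pygo1, share the same WT controls and enter only as side values and in the shared estimate of spread. Nothing in the labels ties a library to a separate culture, so the spread within the WT and Rlim pairs may be technical. Unless stated, p-values measure a spread per gene pooled over all 8 libraries. The Stc1 and Pygo1 pairs, which are outside the comparison, were less alike than the WT and Rlim pairs and add to that spread.

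RLIM, also called RNF12, is an X-linked E3 ubiquitin ligase that marks other proteins for degradation. Among its known targets is REX1, a repressor of Xist. Xist is the long noncoding RNA that spreads over the X chromosome it is made from and silences it in female cells. RLIM was also described as a regulator of LIM-domain cofactors and of SMAD7, an inhibitor of TGF-beta and BMP signalling. In a hybrid line, a read over a base that distinguishes the parents can be traced to 1 of them, here called genome 1 and genome 2 as in the deposited table. Which parent each number stands for is not given in the labels. A fall of a gene's RNA can then be split into less RNA from both genomes and the absence of a genome over a stretch of chromosome.

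Depth was 76125575 and 81500061 counts for the WT pair. It was 74485191 and 76560193 counts for the Rlim-labelled pair, and over the 4 libraries 50.64 to 52.31% of counts carried a genome. Within a pair, the median gene differed by 0.099 on the log2 scale in WT and by 0.066 in the libraries labelled Rlim, against 0.355 for those labelled Stc1 and 0.203 for those labelled Pygo1. The genome 1 share of a chromosome was taken as the median over its genes. It differed by at most 0.4 percentage points within the pair labelled Rlim, 0.7 in WT, 18.4 under the Stc1 label and 48.4 under the Pygo1 label. Whether the pair labelled Rlim came from separate mutant clones was not tested. A difference that both libraries of a label share through the history of its cells cannot be told apart from one due to the genotype. The fibroblast label went with Vim at 941 and 950 CPM (counts scaled to library size) in WT and Fn1 at 2230 and 2343 CPM. Of 16 fibroblast markers 7 did not pass the filter, and the fibrillar collagen Col3a1 stood at 0.0521 and 0.0626 CPM. Markers of kidney tubule were present in the same libraries, with the cadherin Cdh16 at 1781 and 1894 CPM and the water channel Aqp1 at 5048 and 5471 CPM.

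Rlim RNA was not lower in the libraries labelled Rlim. The gene lies on the X chromosome at 103957163 to 103981284 (GRCm38, minus strand), and its level was 57.2 and 51.4 CPM in WT against 71.95 and 64.2 CPM in the libraries labelled Rlim. The groups did not overlap, and the fitted log2 fold change of 0.33 ± 0.37 (SE) did not pass the test (edgeR quasi-likelihood, adjusted p = 0.699, n = 2 libraries per group). Fitted with these 4 libraries alone, so that only their spread was used, the same comparison gave an adjusted p of 1.87e-05 in edgeR. With each chromosome scaled to WT the log2 value of Rlim was 0.72 (edgeR, adjusted p = 0.155), and with the change of neighbouring genes as an offset it was 0.88 (edgeR, adjusted p = 0.306). Reads of genome 2 numbered 2385 and 2249 in WT against 3058 and 2785 in the libraries labelled Rlim, and reads of genome 1 numbered 270 and 263 against 348 and 268. A small deletion inside the open reading frame would not be seen in counts of a whole gene, and the direction of every difference below is that of a pair whose target RNA was not lower.

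Xist stood at 783 and 759 CPM in WT against 631 and 613 CPM in the libraries labelled Rlim, with a log2 fold change of -0.31 ± 0.28 (SE) that did not pass the test (edgeR, adjusted p = 0.612). With the 4 libraries alone its adjusted p in edgeR was 2.54e-07, and it was 0.0485 without Stc1 replicate 1, 0.0479 without Stc1 replicate 2 and 0.0489 without that pair. Genome 1 gave 99.5% of the Xist reads in WT against 99.3% in the libraries labelled Rlim, so the RNA came from the same chromosome in both groups. Reads of Tsix, which overlaps Xist on the other strand, cannot be told apart from Xist reads without a stated strand setting. Scaled to the X chromosome as a whole, Xist changed sign to a log2 value of 0.08 (edgeR, adjusted p = 0.942).

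Other genes that act on Xist did not pass the test either. Of 48 tested members of a list of X inactivation and Xist regulators, 0 were called higher and 0 lower. Over all genes 0.785% were called higher and 0.617% lower, so the count is near the share over all genes. The median log2 fold change of the list was 0.00 against 0.01 over all genes tested. The member nearest to the threshold was Ciz1, which anchors Xist RNA to the nuclear matrix, at 58.7 and 58.7 CPM in WT against 84.7 and 89.8 CPM in the libraries labelled Rlim (log2 0.57 ± 0.10, edgeR adjusted p = 0.058). Ciz1 lies on chromosome 2, whose genomes are described below. The noncoding RNAs Jpx and Ftx beside Xist were each under 2 CPM in these 4 libraries. The list of RLIM partners and substrates had 31 tested members, 0 called in either direction, against 1.4% of all genes, and a median log2 of 0.17. Its members with the largest values were Lmo2, a LIM-only transcription cofactor, at 2.41 ± 0.56, and the LIM homeobox gene Lhx2 at 2.06 ± 0.47, both on chromosome 2 and both short of the threshold (edgeR, adjusted p = 0.0912 and 0.0897). Smad7 stood at 13.6 and 14.0 CPM in WT against 22.7 and 23.7 CPM in the libraries labelled Rlim (edgeR, adjusted p = 0.0834).

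The X chromosome as a whole was lower in the libraries labelled Rlim. The median log2 fold change of its 592 tested genes was -0.48, and the 2 libraries gave -0.36 and -0.42 against the WT mean on the log2(CPM + 0.5) scale. Of these genes 1 was called higher and 7 lower, which is 0.169 and 1.18% of them, against 0.785 and 0.617% of all genes tested. On an X chromosome with an inactive copy, RNA of most genes comes from the active copy only. Here 264 genes took under 5% of their WT reads from genome 1, and their genome 2 reads had a median log2 change of -0.625 (quartiles -0.804 and -0.429), with 249 of 264 below 0. The summed genome 1 share of these genes was 0.497 and 0.462% in WT against 0.621 and 0.648% in the libraries labelled Rlim. The 2 groups of shares did not overlap, and both lay under 1%. Of 358 X-linked genes tested for a changed genome share, 2 had a higher genome 1 share and 0 a lower one. Over all chromosomes 9.5% of genes had a higher genome 1 share and 2.44% a lower one.

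X-linked genes that were read from both X chromosomes in WT were mostly lower from both. Over 56 X-linked genes with at least 10% of their WT reads from genome 1, the median log2 change was -0.606 for genome 1 and -0.469 for genome 2, with 50 and 46 genes below 0. Kdm5c, a histone H3 lysine 4 demethylase, had 3777 and 3935 genome 1 reads in WT against 2751 and 2803 in the libraries labelled Rlim. Its genome 2 reads were 7642 and 7889 against 5333 and 5788, so the 2 copies moved by -0.45 and -0.46 on the log2 scale. Kdm6a, a histone H3 lysine 27 demethylase, gave -0.35 and -0.56, and the translation factor gene Eif2s3x gave -0.50 and -0.63. The RNA helicase gene Ddx3x was an exception with -0.24 for genome 1 and 0.03 for genome 2. A list of 20 tested escape genes held 0 called higher and 2 called lower, against 0.785 and 0.617% of all genes. For X-linked genes these shares were 0.169 and 1.18%. The median of the escape list, -0.48, was that of the X chromosome.

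The called X-linked genes moved by more than their neighbours, with some exceptions. Each gene's log2 fold change was compared with a predicted value, the change of each genome over the 5 nearest genes on either side weighted by the gene's own WT share, and the remainder is the difference. Cldn2, a claudin of leaky tubular epithelium, fell from 133 and 132 CPM to 23.5 and 22.5 CPM (log2 -2.52 ± 0.12, edgeR adjusted p = 0.000843), with a remainder of -1.79. Nsdhl, an enzyme of cholesterol synthesis, fell from 46.3 and 46.4 CPM to 18.2 and 17.6 CPM, with a remainder of -0.76. Amot, a scaffold of the Hippo pathway, fell from 221 and 208 CPM to 106 and 100 CPM with a remainder of -0.46, and Shroom4 fell from 122 and 113 CPM to 71.0 and 72.7 CPM with a remainder of -0.15. Car5b, a mitochondrial carbonic anhydrase known to escape, fell from 84.8 and 84.7 CPM to 32.0 and 31.6 CPM, and both its copies were lower (log2 -1.85 for genome 1 and -1.23 for genome 2). Bex1, named after its values were seen, fell by 3.82 on the log2 scale. Tspan7, a tetraspanin, was the gene that rose, from 25.1 and 26.9 CPM to 44.0 and 42.1 CPM (log2 0.73 ± 0.11, edgeR adjusted p = 0.0363), and its genome 1 share went from 0.329 to 1.54% (edgeR, adjusted p = 0.0329). Cldn2 was also low under the other labels, at 26.1 and 22.5 CPM for Stc1 and 51.4 and 53.6 CPM for Pygo1. Nsdhl, Amot, Shroom4 and Car5b were likewise below both WT libraries in every library of the other labels. Tspan7 was above both WT libraries there, at 47.9 to 95.4 CPM.

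**Figure D1:**
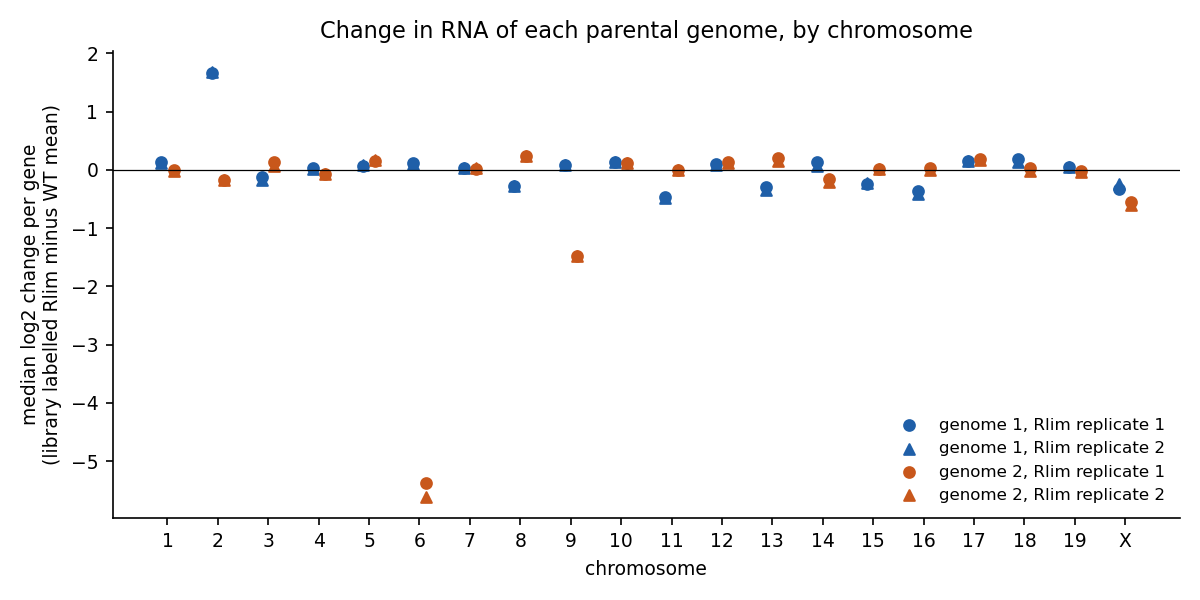
Median log2 change of genome 1 reads (blue) and genome 2 reads (orange) per gene, for each chromosome and for each library labelled Rlim (circles and triangles) against the WT mean. Genome 2 of chromosome 6 lies at -5.38 and -5.61 and genome 1 of chromosome 2 at 1.67 and 1.68, while both genomes of the X chromosome lie below 0.

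On chromosome 6, RNA of genome 2 was nearly gone from the median gene. The median chromosome 6 gene took 72 and 71.9% of its reads from genome 1 in WT against 99.7 and 99.8% under the Rlim label. The median gene had a genome 2 log2 change of -5.38 and -5.61 in the 2 libraries, and a genome 1 change of 0.11 and 0.10. The genome 1 share rose in 408 of 608 genes tested on chromosome 6 and fell in 0, against 9.5 and 2.44% of all genes (edgeR on the counts of both genomes, adjusted p under 0.05). Total RNA of chromosome 6 was lower by a median log2 of -0.32, and the median prediction from neighbouring genes was -0.33. The prediction is made from reads of the same chromosome in the same libraries, so the closeness of these medians is not a test. Of 917 tested genes on chromosome 6, 1 was called higher (0.109%) and 24 lower (2.62%). In the other lines the median chromosome 6 gene took 71.5 and 59.5% from genome 1 under the Stc1 label and 95 and 99.8% under the Pygo1 label.

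The loss began within the chromosome and did not cover all of it. Among the first 20 measured genes, from Samd9l to Ica1, the median genome 2 share was 39.8% in WT against 34.8% in the libraries labelled Rlim. Phf14, which ends at position 12081205, went from 31.2 to 24.8%, Thsd7a from 18.2 to 3.48%, and Tmem106b, which starts at 13069759, from 20.4 to 0.0237%. Further on, blocks of 20 neighbouring genes had medians of 0.0691 to 3.9% up to Etv6, where WT had 21.4 to 31.9%. Genome 2 reads were again seen near the distal end, with medians of 10.6% over the block from Lrp6 to Mgst1 and 17.6% over that from Plekha5 to Fgfr1op2, where WT had 36.5 and 41.2%. The last block, from Tm7sf3 to Bicd1, had 0.422% against 24.1% in WT. Single genes inside the region kept a high genome 2 share, such as Arf5 at 95.5% in WT against 91.2% in the libraries labelled Rlim.

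**Figure D2:**
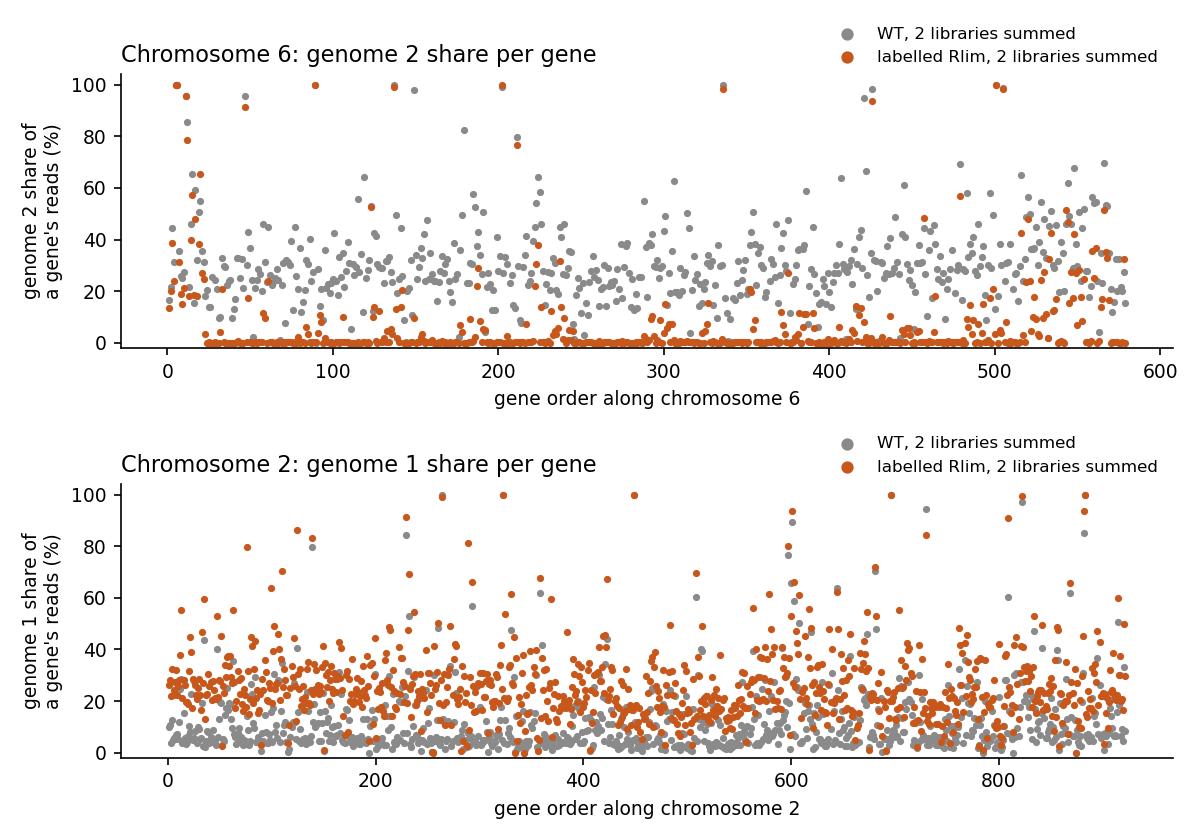
Share of a gene's reads from genome 2 along chromosome 6 (top) and from genome 1 along chromosome 2 (bottom), by gene order, each point being a gene with the 2 libraries of its group summed (WT grey, labelled Rlim orange). On chromosome 6 most orange points drop to near 0 after the first genes and rise again in part near the distal end, and on chromosome 2 most lie above the grey points along the chromosome.

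How far a chromosome 6 gene fell went with how much of its RNA came from genome 2 in WT. Protein-coding genes with 20 to 40% from genome 2 had a median log2 fold change of -0.38 (303 genes, predicted -0.36), and those with 0 to 10% had -0.18 (31 genes, predicted -0.01). Predictions for genes grouped by share came from the nearest genes read on each genome apart, a rule chosen after seeing the data. The 11 genes with 60 to 80% had -0.76, above the predicted -1.33. All 8 genes with 80 to 100% from genome 2 were lower, with a median of -3.83 (predicted -3.43), and 5 of them were called. Rassf4, a RAS-association domain gene, was such a gene: its genome 2 reads were 2254 and 2298 in WT against 7 and 5 in the libraries labelled Rlim, and its genome 1 reads 121 and 133 against 70 and 70. Its total fell from 38.6 and 38.6 CPM to 1.19 and 1.12 CPM (log2 -5.06 ± 0.58, edgeR adjusted p = 0.02), of which -3.75 was predicted. The aldo-keto reductase gene Akr1b7 and Depp1, both named after their values were seen, fell by 3.89 and 3.77 on the log2 scale, with remainders of -0.82 and -0.77. Akr1b7 has near copies, so its reads are uncertain.

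**Figure D3:**
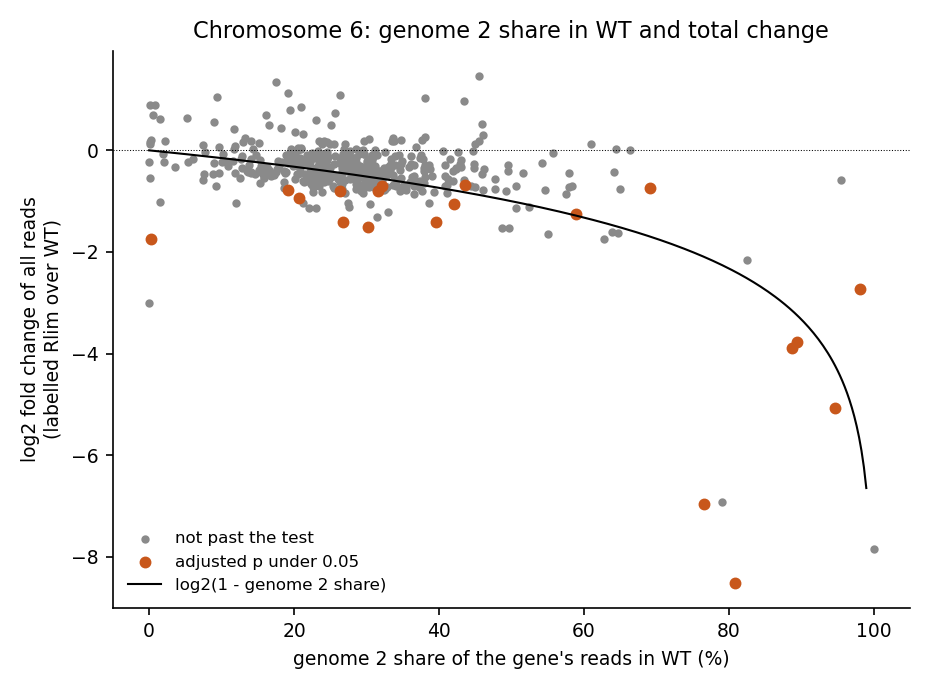
Log2 fold change of all reads against the WT share of genome 2 for 470 protein-coding genes of chromosome 6 whose neighbours lost genome 2, with the 19 called genes in orange and the curve log2(1 - genome 2 share). Most genes lie near the curve up to a share of 40%, and Gpnmb, the called gene with the highest genome 2 share, lies above it.

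Some chromosome 6 genes were lower from genome 1 as well, which the neighbours did not predict. Gstk1, a glutathione transferase of mitochondria and peroxisomes, had 465 and 464 genome 2 reads in WT against 1 and 0 in the libraries labelled Rlim, and its genome 1 reads were 95 and 124 against 2 and 2. Its total fell from 18.9 and 20.04 CPM to 0.0786 and 0.0257 CPM. Cxcl12, the ligand of CXCR4, fell from 15.8 and 15.1 CPM to 0.131 and 0.116 CPM (log2 -6.95 ± 0.66, edgeR adjusted p = 0.0129, remainder -5.08). Its genome 1 reads were 228 and 240 in WT against 5 and 6 in the libraries labelled Rlim. Oxtr, the oxytocin receptor gene, took 99.8% of its WT reads from genome 1 and still fell from 15.3 and 16.7 CPM to 4.59 and 5.00 CPM. Under the Stc1 and Pygo1 labels Oxtr was also below WT, at 2.21 to 9.08 CPM. Gstk1 was at 18.8 and 14.4 CPM under the Stc1 label and at 2.18 and 0.317 CPM under the Pygo1 label. Cxcl12 was at 4.89 and 15.2 CPM and at 0.982 and 1.43 CPM. Aqp1, named after its values were seen, fell from 5048 and 5471 CPM to 1927 and 2060 CPM (log2 -1.40 ± 0.22, edgeR adjusted p = 0.0386), with -0.94 from genome 1 and a remainder of -1.01. Of the 24 called genes that fell, 8 had a remainder past 2-fold and 9 lay within 1.5-fold of their prediction. Of the 21 with at least 20 genome 1 reads in WT, 8 were also at least 1.5-fold lower from genome 1.

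Gpnmb was the case in which the remaining genome moved up while the total went down. This gene, which encodes a transmembrane glycoprotein of lysosomes and melanosomes, had 14146 and 15102 genome 2 reads in WT against 192 and 194 in the libraries labelled Rlim. Its genome 1 reads were 303 and 269 in WT against 1897 and 1748 in the libraries labelled Rlim, a log2 change of 2.69. The total fell from 244 and 248 CPM to 38.4 and 35.6 CPM (log2 -2.73 ± 0.44, edgeR adjusted p = 0.0424), less than the -4.69 predicted, and its genome 1 share rose from 1.92 to 90.4% (edgeR, adjusted p = 0.00521). With the prediction as an offset in the model its log2 value turned to 1.96 and did not pass the test (edgeR, adjusted p = 0.0891). Tnip3, an inhibitor of NF-kB signalling named after its values were seen, was the chromosome 6 gene that rose, from 0.0261 and 0.0376 CPM to 0.773 and 0.527 CPM.

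Chromosome 2 also took a larger part from genome 1, with more genome 1 RNA and little change of genome 2. The median chromosome 2 gene took 6.83 and 7.10% of its reads from genome 1 in WT and 23.6 and 23.5% under the Rlim label. Under the Stc1 and Pygo1 labels it took 1.35 to 1.5%. The median gene gained 1.67 and 1.68 on the log2 scale from genome 1 in the 2 libraries and lost 0.17 and 0.18 from genome 2 (log2 -0.17 and -0.18). The genome 1 share rose in 593 of 955 genes tested on chromosome 2. Ptpa, an activator of protein phosphatase 2A, went from 6.30 to 28.5% genome 1, and Ntmt1, an N-terminal methyltransferase, from 6.88 to 28.7%. Golga2 of the Golgi apparatus went from 3.55 to 19.5%, and Nup188 of the nuclear pore from 6.88 to 28.1% (edgeR, adjusted p = 0.00456 for each of these 4 genes). The totals of these 4 genes did not pass the test. Raly, an RNA-binding protein gene of the same chromosome, went the other way, from 94.4 to 84.5% genome 1 (edgeR, adjusted p = 0.00456).

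Total RNA of chromosome 2 had a median log2 of 0.07, and genes that used genome 1 in WT were not raised to the extent that their share predicted. The 14 protein-coding genes with over 50% from genome 1 in WT had a median log2 fold change of 0.16 where 1.05 was predicted, and the 114 with 20 to 50% had 0.10 where 0.46 was predicted. As for the groups on chromosome 6, these predictions used the rule chosen after seeing the data. Of 1390 tested genes, 26 were called higher (1.87%) and 4 lower (0.288%). Sirpa, a receptor for CD47 on phagocytes and neurons, rose from 13.6 and 13.9 CPM to 52.2 and 54.8 CPM (log2 1.96 ± 0.13, edgeR adjusted p = 0.00373), with 89.3% of its WT reads from genome 1. Stom, the membrane protein stomatin, rose from 4.21 and 4.79 CPM to 18.1 and 18.3 CPM with 84.5% from genome 1. Predictions from the nearest genes read on each genome apart, chosen after seeing the data, were 0.96 for Sirpa and 1.03 for Stom and left remainders of 1.00 and 0.99. By that prediction 22 of the 26 genes were still more than 2-fold above it.

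Several chromosome 2 genes were nearly silent in WT and came on from genome 1. Serping1, the C1 inhibitor of complement, rose from 0.117 and 0.150 CPM to 4.05 and 4.02 CPM, with 90.9% from genome 1 in the libraries labelled Rlim. Fgf7, a growth factor for epithelial cells, rose from 0.586 and 0.313 CPM to 6.96 and 7.04 CPM with 95.1% from genome 1. The histamine-degrading enzyme gene Hnmt and Malrd1, both named after their values were seen, took 100% of their reads from genome 1 and rose by 3.22 and 3.49 on the log2 scale. Other chromosome 2 genes rose on both genomes, among them Lcn2 and the BMP target Id1. Of the 23 risen genes with at least 20 reads of a known genome in the libraries labelled Rlim, 10 took over 50% from genome 1.

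Smaller shifts of genome share were seen on other chromosomes, with the share of a chromosome again being the median over its genes. The genome 1 share of chromosome 8 went from 60.2 and 60.1% in WT to 52.0 and 51.9%, with a fall in 110 of 718 genes tested, and that of chromosome 13 from 63.5 and 63.8% to 54.9 and 54.8%, with a fall in 34 of 417. Chromosome 16 went from 53.2 and 53% to 47.3 and 46.9%. A minor remnant of genome 2 on chromosome 9 was lower, with genome 1 at 98.7% in both WT libraries and 99.9% in both libraries labelled Rlim, and the share rose in 138 of 711 genes. Loxl1, a lysyl oxidase of chromosome 9 that crosslinks elastin, went from 95.4 to 100% genome 1 (edgeR, adjusted p = 0.00456). On chromosome 11 genome 1 went from 1.66 and 1.79% to 0.994 and 0.947%, with a fall in 121 of 1043 genes. Among these Sparc, a matrix glycoprotein, went from 0.534 to 0.0549% and Tmub2 from 0.545 to 0.0232% (edgeR, adjusted p = 0.00456 for each), Aspscr1 from 0.619 to 0.0262% (adjusted p = 0.00456 in edgeR), and Eif4a3 of the exon junction complex from 0.716 to 0.0857% (adjusted p = 0.00498 in edgeR). Over all chromosomes 1488 of 12465 genes changed their share (11.9%), 1184 towards genome 1 and 304 towards genome 2. With 1 WT or 1 Rlim-labelled library left out, edgeR called 0 genes for their share, with 2054 to 2123 at an unadjusted p under 0.05.

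Counted over all reads, 250 of 17839 genes were called (1.4%), 140 higher (0.785%) and 110 lower (0.617%) in the libraries labelled Rlim (edgeR, adjusted p under 0.05), and 3195 genes had an unadjusted p under 0.05. Of the called genes, 108 were at least 2-fold higher and 78 at least 2-fold lower (0.605 and 0.437% of all genes). The count depended on the libraries in the fit. On the 4 libraries alone, where the spread came from the WT and Rlim pairs only, edgeR called 8340 genes, which included all 250. The count fell to 3 without WT replicate 1 or WT replicate 2, to 7 without Rlim replicate 1 and to 9 without Rlim replicate 2, and it was 3036 and 3034 without either Stc1 library. Chromosomes other than 2, 6 and X held 112 of the higher and 75 of the lower genes, which is 74.8% of the calls against 83.7% of the genes tested.

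Most called genes that could be read on both genomes moved on both. Of the 140 genes that rose, 78 could be read on both genomes, and 64 of these were at least 1.5-fold higher from each genome, 12 from genome 1 only and 2 from genome 2 only. Of the 110 that fell, 72 could be read on both, and 53 were lower from each genome, 4 from genome 1 only and 15 from genome 2 only. Over all 10163 genes that could be read on both, 7.28% moved so on each genome. After the predicted part was taken off, 111 of the 140 and 63 of the 110 were past 2-fold in their direction, and 105 and 58 of these had also been past 2-fold before it was taken off. Of all genes with a prediction, 11.3% had a remainder past 2-fold in either direction. These counts describe genes chosen for their total change, so they are not a separate test.

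**Figure D4:**
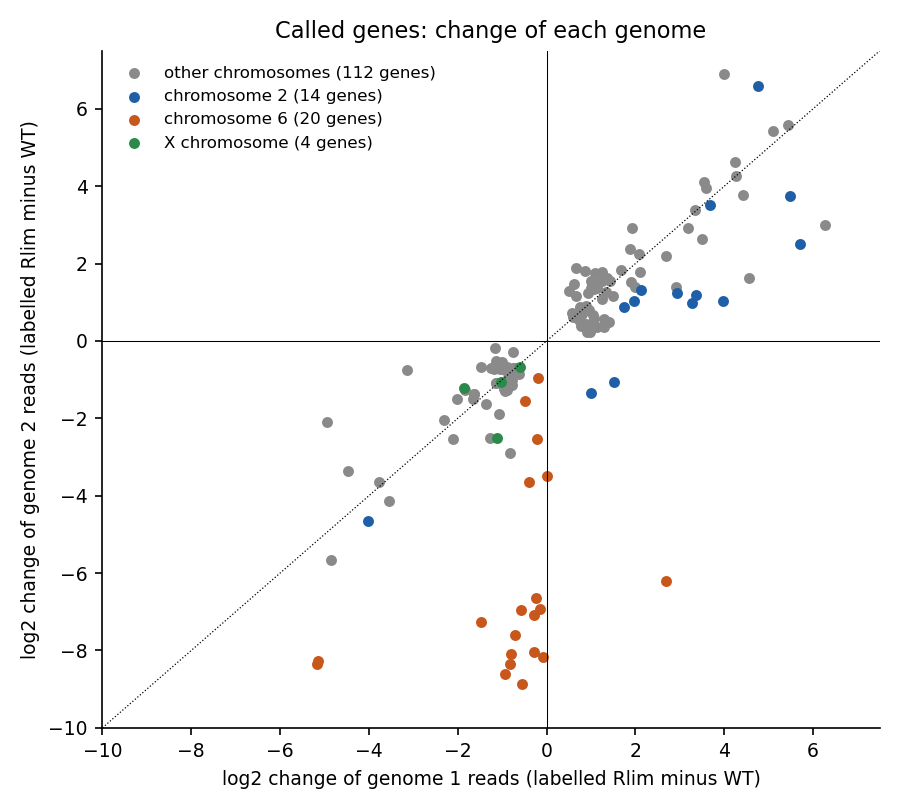
Log2 change of genome 2 reads (vertical axis) against that of genome 1 reads (horizontal axis) for the 150 called genes that could be read on both genomes, coloured by chromosome, with equal change on the dotted line. Of the 112 genes of other chromosomes 101 have genomes within 1 log2 of each other, 18 of the 20 chromosome 6 genes lie more than 2 log2 below the line, and Gpnmb is the chromosome 6 gene with more genome 1 and fewer genome 2 reads.

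Among the lists used here, that of acute inflammatory genes held the most genes that rose. The lists were chosen with earlier results of these data known, so this rank is not a separate test. These genes are switched on by the transcription factor NF-kB and encode chemokines, acute phase proteins and enzymes that act on immune cells. Of 35 tested members of a list of inflammatory chemokines and NF-kB targets, 9 were called higher and 0 lower, against 0.785 and 0.617% of all genes. Their median log2 fold change was 1.47 against 0.01 for all genes, and 1.48 as a remainder, and the summed level of the list was 1340 and 1400 CPM in WT against 4070 and 4160 CPM in the libraries labelled Rlim. In 33 members both libraries labelled Rlim lay above both WT libraries, as did 35.7% of all genes.

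Lcn2, the iron-siderophore binding protein lipocalin 2, rose from 61.5 and 62.1 CPM to 1073 and 1104 CPM (log2 4.14 ± 0.15, edgeR adjusted p = 0.000241). Its genome 1 reads went from 423 and 462 to 18756 and 20115, and its genome 2 reads from 2864 and 3001 to 37669 and 39809, so both copies were higher by more than their neighbours. Nos2 makes nitric oxide in activated cells, and it rose from 5.13 and 4.99 CPM to 191 and 202 CPM (log2 5.28 ± 0.56, edgeR adjusted p = 0.0182). The neutrophil chemokines Cxcl5 and Cxcl1 rose as well, Cxcl5 from 22.2 and 19.7 CPM to 420 and 415 CPM and Cxcl1 from 5.73 and 5.96 CPM to 75.4 and 72.5 CPM. The log2 change of Cxcl5 was 4.23 from genome 1 and 4.62 from genome 2.

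Steap4, a metalloreductase, had the largest rise among named genes of at least 5 CPM, from 0.716 and 0.777 CPM to 48.3 and 43.1 CPM (log2 5.93 ± 0.51, edgeR adjusted p = 0.00993). Saa3, an acute phase apolipoprotein with near copies, rose from 3.01 and 3.11 CPM to 130 and 133 CPM. Ccl20, the ligand of CCR6, rose from 0.365 and 0.263 CPM to 4.86 and 4.23 CPM. Zc3h12a, a ribonuclease that degrades inflammatory mRNAs, rose from 11.7 and 11.4 CPM to 52.2 and 49.8 CPM, and Lif, a cytokine named after its values were seen, from 18.9 and 20.1 CPM to 47.6 and 48.2 CPM. Members short of the threshold included Ccl2 at 67.5 and 65.0 CPM in WT against 218 and 222 CPM (edgeR, adjusted p = 0.0897) and the inhibitor gene Nfkbia at 15.3 and 16.5 against 49.5 and 48.4 CPM (edgeR, adjusted p = 0.0566). The subunit gene Nfkb1 stood at a log2 of 0.34 (edgeR, adjusted p = 0.221). Interferon response genes had 39 tested members, 0 called, against 1.4% of all genes, and a median of 0.05.

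Other large rises were in genes of varied function. Ltbp2, a matrix protein related to the TGF-beta binding proteins, rose from 11.2 and 11.1 CPM to 179 and 177 CPM (log2 3.99 ± 0.20, edgeR adjusted p = 0.000843), and overlaps D030025P21Rik. Neurl3, an E3 ubiquitin ligase, rose from 11.7 and 12.4 CPM to 120 and 124 CPM with 61.9% of its reads from genome 1 in WT and 61.4% in the libraries labelled Rlim. Cebpd, a transcription factor of the acute phase that overlaps Spidr, rose from 13.8 and 15.5 CPM to 75.5 and 74.4 CPM. Tnfrsf9, a costimulatory receptor of the TNF family also known as 4-1BB, rose from 1.09 and 1.14 CPM to 15.2 and 13.3 CPM, Tbkbp1, a partner of the kinase TBK1, from 1.37 and 1.72 CPM to 9.18 and 9.51 CPM, and Dok7, an activator of the kinase MuSK, from 2.46 and 1.73 CPM to 8.36 and 8.02 CPM. None of these 6 genes lies on chromosome 2, 6 or X. Vtcn1, an immune checkpoint ligand, rose by 4.21 and Slc26a4, the anion exchanger pendrin, by 4.91 on the log2 scale. Several of these genes were above WT under the Stc1 and Pygo1 labels too. There Neurl3 was at 54.8 to 111 CPM, Cebpd at 39.6 to 62.3 CPM and Tnfrsf9 at 6.69 to 14.1 CPM. Vtcn1 was at 4.38 to 7.80 CPM and Slc26a4 at 0.985 to 3.37 CPM. Tbkbp1, at 1.73 to 3.55 CPM, and Dok7, at 2.68 to 3.17 CPM, lay nearer to WT there.

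Genes of the BMP arm of TGF-beta signalling also held called members. Of 29 tested genes of the TGF-beta and BMP list, 4 rose and 0 fell, against 0.785 and 0.617% of all genes, with a median log2 of 0.34. They were Ltbp2, the BMP effector Smad9 (1.94 and 2.14 CPM in WT, 7.20 and 7.07 CPM in the libraries labelled Rlim), and the BMP targets Id1 (26.5 and 29.8 against 77.7 and 74.1 CPM) and Id2 (19.99 and 20.1 against 39.0 and 36.4 CPM). Id3 stood at 55.5 and 61.3 CPM in WT against 123 and 118 CPM (edgeR, adjusted p = 0.123), and Tgfbi, a TGF-beta target, at -1.74 ± 0.65 (edgeR, adjusted p = 0.22). Under the Stc1 and Pygo1 labels Ltbp2 was at 94.7 to 221 CPM, Smad9 at 5.37 to 7.56 CPM and Id1 at 43.2 to 59.2 CPM, also above WT. Id2 was at 40.2 and 36.2 CPM under the Stc1 label and at 21.9 and 20 CPM under the Pygo1 label. Among 22 tested Wnt targets 2 rose, against the same 0.785%, Fosl1, a subunit of AP-1, from 15.9 and 17 CPM to 36.2 and 37.5 CPM, and Notum, a Wnt deacylase, from 0.221 and 0.276 CPM to 2.74 and 1.81 CPM. Fosl1 overlaps Ccdc85b and Notum overlaps an antisense gene. Fosl1 and Ier3 were the 2 of 37 MAPK and AP-1 response genes that rose, and 0.785% of all genes did.

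**Figure D5:**
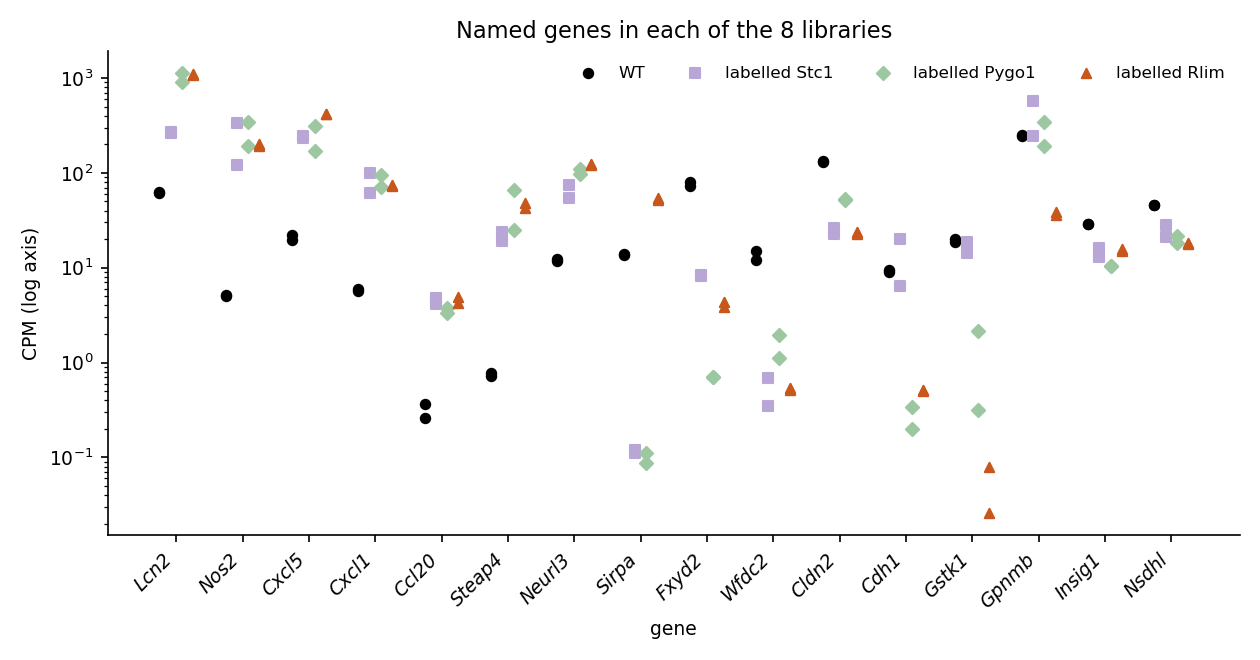
CPM on a log axis for 16 called genes in each of the 8 libraries (WT black, labelled Stc1 violet, labelled Pygo1 green, labelled Rlim orange). In each gene both orange triangles lie on the same side of both black points, from Lcn2 at 61.5 and 62.1 against 1073 and 1104 CPM to Gstk1 at 18.9 and 20.04 against 0.0786 and 0.0257 CPM.

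The genes that fell included markers of kidney tubule epithelium. Of 18 tested tubule markers 5 fell and 0 rose, against 0.617 and 0.785% of all genes. Called or not, 5 were at least 2-fold lower and 4 at least 2-fold higher. Their summed level was 8540 and 9140 CPM in WT against 4900 and 5140 CPM in the libraries labelled Rlim, most of it Aqp1. Fxyd2, the gamma subunit of the renal sodium pump, fell from 73.3 and 79.6 CPM to 4.34 and 3.88 CPM (log2 -4.22 ± 0.14, edgeR adjusted p = 0.000236), with 99.9% of its WT reads from genome 1 of chromosome 9, where genome 1 was kept. Wfdc2, a protease inhibitor of secretory epithelium on chromosome 2, fell from 12.2 and 15 CPM to 0.511 and 0.540 CPM and was lower from both genomes. Cdh1, the epithelial cadherin, fell from 9.52 and 8.91 CPM to 0.498 and 0.514 CPM. The other 2 were Cldn2 on the X chromosome and Aqp1 on chromosome 6. Markers that did not pass the test included Cdh16 at a log2 of -0.22 ± 0.16, the endocytic receptor gene Lrp2 at -0.11 ± 0.20, the transcription factor Pax8 at -0.24 ± 0.15 and Epcam at 1.52 ± 0.34, so the list did not move as a whole: its median was -0.17. Slc6a18, an amino acid transporter of proximal tubule that was not in this list, fell from 99.8 and 102 CPM to 7.42 and 8.60 CPM on both genomes, and Mme, the brush border peptidase neprilysin, from 52.8 and 46.4 CPM to 17.1 and 15.3 CPM. Under the Stc1 and Pygo1 labels Wfdc2 was at 0.346 to 1.97 CPM and Slc6a18 at 12.2 to 34.7 CPM, also below WT. Mme was at 23.3 to 58.6 CPM there.

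Most cholesterol synthesis genes lay lower in the libraries labelled Rlim, and few passed the test. Of 25 tested members 3 fell and 0 rose, against 0.617 and 0.785% of all genes, and the median log2 fold change was -0.64 and the median remainder -0.72. In 23 members both libraries labelled Rlim lay below both WT libraries, as did 35.6% of all genes. Fdft1, squalene synthase, fell from 105 and 116 CPM to 55.5 and 53.5 CPM (log2 -1.02 ± 0.14, edgeR adjusted p = 0.0298), and overlaps Ctsb. Insig1, a sterol sensor of the endoplasmic reticulum, fell from 28.8 and 28.6 CPM to 15.7 and 15 CPM, and Nsdhl is given above. These genes were below WT under the Stc1 and Pygo1 labels too. There Fdft1 was at 50.49 to 64.16 CPM, Insig1 at 10.42 to 15.98 CPM and Nsdhl at 18.15 to 28.45 CPM. Srebf1 was the member that lay higher, with a log2 of 0.31.

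The remaining genes with the largest falls were spread over other functions. Galnt14, a glycosyltransferase of mucin-type glycans, fell from 17.6 and 18 CPM to 6.08 and 6.35 CPM. Cth, cystathionine gamma-lyase, fell from 19.1 and 20.5 CPM to 5.50 and 4.91 CPM, Sox8, a SOX transcription factor, from 12.2 and 13.2 CPM to 3.92 and 4.06 CPM, and the chloride-proton exchanger gene Clcn4 from 19.3 and 16.2 CPM to 5.73 and 5.6 CPM. Pcdhgb5 fell by 1.62 on the log2 scale, but it shares exons with the other genes of its protocadherin cluster and its counts are uncertain. Trim25, an E3 ligase of the RIG-I pathway, went from 0.807 and 1.22 CPM to 0.0131 and 0.0257 CPM, Rab44 from 1.20 and 1.49 CPM to 0.105 and 0.0514 CPM, and Wscd2 from 2.29 and 2.41 CPM to 0 and 0.0643 CPM, each lower on both genomes. Sema5a, a guidance molecule, fell from 252 and 248 CPM to 89.5 and 93.3 CPM. Under the Stc1 and Pygo1 labels Trim25 was at 0 to 0.0533 CPM, Rab44 at 0.0755 to 0.179 CPM and Wscd2 at 0 to 0.173 CPM. Cth was at 2.54 to 10.9 CPM there and Sox8 at 5.87 to 9.66 CPM, so these genes were also below WT. Galnt14, Clcn4, Pcdhgb5 and Sema5a were not below both WT libraries in every library of the other labels.

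The other lists held few called genes, read against 0.785% higher and 0.617% lower over all genes. Of 34 tested collagens and matrix genes 0 rose and Postn, periostin, fell, and of 29 matrix proteases and inhibitors 0 rose and the X-linked inhibitor Timp1 fell. Glycolysis and hypoxia genes had 1 riser and 1 faller of 36 and a median of 0.38: Pfkl, the liver phosphofructokinase, rose from 222 and 233 CPM to 645 and 649 CPM, and Aldoc fell from 1.24 and 1.63 CPM to 0.315 and 0.463 CPM. In the unfolded protein response and ATF4 list 1 of 32 fell, Chac1, a glutathione-degrading enzyme that went from 90.7 and 103 CPM to 44.7 and 44.0 CPM, and in the NRF2 and glutathione list 1 of 43 fell, Cbr1. Of 47 growth factors and receptors Fgf7 rose, of 49 adhesion genes Cdh1 and Sema5a fell, and of 23 nephric transcription factors Gata3 rose. Lists with 0 called genes were cell cycle (46 tested, median 0.06), p53 targets (30, -0.08), nuclear oxidative phosphorylation genes (46, -0.18), imprinted genes (29, 0.18) and Hox genes (33, 0.03). Of 13 mitochondrially encoded genes 0 were called, with a median of -0.34, and they took 8.18 and 7.44% of counts in WT against 6.67 and 6.37% in the libraries labelled Rlim.

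Few markers of other cell types passed the test, though their summed levels differed between the groups. The counts of called markers are read against 0.785% higher and 0.617% lower over all genes, and each list was short. Smooth muscle and pericyte markers had a summed level of 199 and 226 CPM in WT against 562 and 578 CPM in the libraries labelled Rlim, with 1 of 10 called, the actin nucleator Lmod1, which was also the 1 of 27 contractile genes that rose. Acta2, smooth muscle actin, stood at 72.6 and 81.4 CPM against 281 and 292 CPM (edgeR, adjusted p = 0.154). Of 9 tested leukocyte markers 0 were called, and their median log2 was 0.68. Their summed level was 107 and 114 CPM in WT against 90.4 and 91.0 CPM in the libraries labelled Rlim, and the pan-leukocyte gene Ptprc stood at 0.0521 and 0.0376 against 0.288 and 0.0899 CPM. Of 6 endothelial markers Pecam1 rose, from 0.0261 and 0.163 CPM to 2.27 and 2.26 CPM, and the sum was 157 and 169 against 203 and 204 CPM. Of 9 fibroblast markers S100a4 fell, and the sum was 3180 and 3310 against 2450 and 2460 CPM, while their median log2 was 0.64 and both libraries labelled Rlim lay above both WT libraries in 5 of them. Neural markers had 0 of 7 called and sums of 35.2 and 38.6 against 46.3 and 47.4 CPM. The part of these cell types in the inflammatory and tubule results was not tested, and in bulk RNA fewer cells of a type and less RNA per cell cannot be told apart.

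The libraries labelled Rlim were also tested against the other labels. These tests share the Rlim libraries and the pooled spread with the 250 calls, so counts among called genes are not a separate test. Of the 250 called genes 40 also differed from the Stc1 label and 51 from the Pygo1 label, where 0.381 and 1.02% of all genes did. Both labels differed for 23, a count not made over all genes. Of these 23 genes 14 were above both labels, 11 of them on chromosome 2, while 6 were below both and 3 lay between. Chromosome 2 held 1390 of the 17839 genes tested and 26 of the 140 called higher. Sirpa was at 0.111 and 0.120 CPM under the Stc1 label and 0.0881 and 0.110 CPM under the Pygo1 label, against 52.2 and 54.8 CPM under the Rlim label and 13.6 and 13.9 CPM in WT (edgeR, adjusted p = 1.43e-05 and 1.32e-05 for the Rlim label against the other labels). Stom was likewise below WT in the 4 libraries of the other labels, at 0.173 to 0.327 CPM. Fgf7, which was already at 0.586 and 0.313 CPM in WT, was at 0.165 to 0.516 CPM in those 4 libraries. In these libraries the median chromosome 2 gene took 1.35 to 1.5% of its reads from genome 1.

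Most of the inflammatory genes were high under the other labels too. Nos2 stood at 122 and 338 CPM under the Stc1 label and 348 and 191 CPM under the Pygo1 label, and Cxcl1 at 61.6 and 100 against 94.8 and 71.7 CPM. Lcn2 was at 266 and 269 CPM under the Stc1 label, below the libraries labelled Rlim (edgeR, adjusted p = 0.0087), and at 1136 and 913 CPM under the Pygo1 label. Fxyd2 was low under each label, at 8.48 and 8.19 CPM for Stc1 and 0.705 and 0.702 CPM for Pygo1, and the libraries labelled Rlim lay between (edgeR, adjusted p = 0.041 and 0.00128). Galnt14 differed in that the other labels had 14.9 to 20.5 CPM, as in WT. Gpnmb was at 243 and 577 CPM and at 344 and 193 CPM under the other labels, and 35.6 and 38.4 CPM under the Rlim label (edgeR, adjusted p = 0.0428 and 0.0438). Cdh1 was below WT in the Pygo1 libraries, at 0.201 and 0.344 CPM, and stood at 20.1 and 6.36 CPM under the Stc1 label.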

How the data were processed

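The labels' protocols give Trizol extraction and a TruSeq preparation, and the submitters' processing notes name HISAT2 2.0.5, Cufflinks, featureCounts and mm10 without roles. The deposited table holds raw counts for each Ensembl gene and library, over all reads and over the reads of each genome. The strand setting and the tool that split the genomes are not given in the sources used here, so overlapping genes and near copies are uncertain. Aligning to mm10 can favour a parent, so changes of share were read between libraries. The WT shares themselves entered the predictions, the remainders and the grouping of genes by share, and were not corrected for such a bias. Positions are from GENCODE M21 (GRCm38), which matched 49411 of 49670 genes.

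edgeR 4.0.16 in R 4.3.3 was run with TMM scaling and its default filter, with 1 mean per group over the 8 libraries, so the spread of all groups was pooled (common coefficient of variation 24.6%). Calls have a quasi-likelihood p, adjusted by Benjamini-Hochberg over all genes, under 0.05. Genome shares were tested in edgeR with library terms and a genome term per group, over genes with 20 such reads in each library. The 329 genes with more genome reads than reads were not used for shares. Changes of 1 genome used 1 added read and carry no test. Predictions used neighbours with a WT share of 20 to 80% within 20 Mb, or else neighbours with 50 reads of the genome in question. Chromosome 6 genes grouped by share had 50 such reads in each WT library and neighbours with a genome 2 log2 change below -3. Predictions for genes grouped by share, on chromosomes 6 and 2, took neighbours with 50 WT reads of a genome, chosen for each genome apart.

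Members and lists were chosen with earlier results of these data known. The rule named Rlim and Xist, the 15 largest rises and falls of called genes above 5 CPM on average, up to 4 called members of each list and 4 X-linked genes each way, 5 genes each way by share and 8 by remainder among called genes with 20 reads of each genome, without predicted genes. Other genes, among them those short of the threshold, were named after their values were seen. In data simulated on 17839 genes the count test called 16% of 2-fold and 71% of 4-fold changes, with 2.25% of calls false. Every library there had the same pooled spread per gene, whereas the real pairs differed in spread, so these rates may not hold. The share test, on 12465 genes, called 96% of 4-fold changes of odds, with 8.57% false. That simulation drew reads from 1 share per gene, without further spread between libraries. Its rates may not hold for the real libraries, whose shares differed within pairs. Alternatives were other scalings, filters and neighbours, DESeq2 1.42.0, fewer libraries and a replicate term. Figures used matplotlib 3.10.9.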

Additional observations from a re-analysis of the deposited data

How the results depend on the processing

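The 250 calls came to 251 with size factors in edgeR, 255 with upper quartile and 256 with total count scaling, 610 with no filter on low counts, 1419 in DESeq2, 15 at an adjusted p under 0.01, 3050 without the Stc1 pair and 8340 with the WT and Rlim libraries alone, and ran from 3 to 3036 with 1 library left out. Rlim RNA was 0.72 (log2) with each chromosome scaled to WT and 0.88 with the neighbours' prediction as an offset, ran from 0.25 to 0.41 with 1 library left out, and the 4 libraries alone gave 0.32 (edgeR adjusted p = 1.87e-05). Xist was past the threshold at -0.32 with the 4 libraries alone and at -0.31 without the Stc1 pair, ran from -0.33 to -0.28 with 1 library left out (past the threshold in edgeR without either Stc1 library, adjusted p = 0.0485 and 0.0479), and turned to 0.082 with each chromosome scaled to WT and to 0.33 with the neighbours' prediction as an offset (edgeR adjusted p = 0.622). The X chromosome median was -0.43 with upper quartile scaling, -0.088 with each chromosome scaled to WT, 0.063 with the offset and -0.53 to -0.45 with 1 library left out. The chromosome scaling and the offset remove, by construction, what the genes of a chromosome share. Genes with a changed share numbered 1546 and 1424 with read minimums of 50 and 10, 5220 with the 4 libraries alone, and 0 with 1 WT or Rlim library left out (edgeR, 2054 to 2123 at an unadjusted p under 0.05). The 174 called genes past 2-fold beyond their prediction were 166 to 181 with other neighbours and 3 to 9 with 1 WT or Rlim library left out, by when few genes were called at all. Gpnmb turned from -2.73 to 1.96 with the offset. Of 63 named called genes 48 were called with the offset, 55 with chromosomes scaled, 56 without either Pygo1 library and 3 to 9 without a WT or Rlim library. Where no cause is given, the cause was not tested.

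Replicate numbers are shared by the groups, but the labels tie no number to a batch, and the correlation of the differences between replicates 1 and 2 ran from -0.198 to 0.266 over the 6 pairs of groups, with 0.266 for WT and Rlim, so the numbers were not taken to pair samples. With a replicate block edgeR called 26 genes, all among the 250, 17 of the 63 named called genes, and 550 genes for their share.

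In data simulated with these libraries' depths and spread, 16% of 2-fold changes were called.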
